A study of Mus musculus with 6 samples.

Results

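ASH2L peaks at the promoters of protein-coding genes that also carry H3K4me3 are described here, in mouse E14 embryonic stem cells (ESCs). A peak of the ASH2L CUT&RUN list was taken when its midpoint fell between positions −1000 and 100 around the start of a protein-coding transcript on chromosomes 1 to 19 and when it overlapped an H3K4me3 peak by 1 bp or more. Of 2464 ASH2L peaks, 2452 were on these chromosomes and 956 of those were at coding promoters. Among the 956, 914 overlapped H3K4me3 (95.6%, 95% Wilson interval 94.1% to 96.7%) and are the peaks described below. The remaining 42 had no H3K4me3 peak. Away from coding promoters, 895 further ASH2L peaks overlapped H3K4me3 and 601 did not. The 914 peaks were selected on both lists, so their overlap with H3K4me3 and their place near start sites are the selection itself and not a result.

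The study comprised 6 CUT&RUN samples in 3 groups of 2 biological duplicates, and CUT&RUN maps a chromatin protein by tethering a nuclease to it with an antibody and sequencing the released DNA. HA-ASH2L E14 cells, whose genotype label is a HA-Ash2L knock-in, carry a doxycycline-inducible HA-Ash2L transgene, introduced by piggyBac and grown from picked single colonies, beside the endogenous Ash2l gene. They were profiled with anti-HA (1000000 cells per sample, according to the labels) and with anti-H3K4me3 (100000 cells according to the labels, while the study's methods give the same number for both antibodies). The third group was parental E14 cells (labelled WT) with anti-HA, which was not analysed here. All 3 groups were grown in knockout DMEM with serum and LIF, and doxycycline was added for 48 h. Duplicates were merged before peak calling, so each antibody is 1 merged library without a spread between cultures, and all comparisons below are descriptions across genes or peaks without a test. Tags left after removal of redundant ones numbered 25677963 for ASH2L and 27328071 for H3K4me3, and peaks held 0.398% of the former and 45.7% of the latter. Of 7 genes that mark ESCs, Esrrb, Klf4, Tfcp2l1 and Zfp42 had a promoter H3K4me3 peak in the list. Nanog, Pou5f1 and Sox2 had none, so that the list is not complete at promoters known to be active in these cells.

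ASH2L is a shared core subunit of the MLL/SET1 complexes, the enzymes that methylate lysine 4 of histone H3. It works with WDR5, RBBP5 and DPY30 to raise the activity of the catalytic subunits. Trimethylation of this lysine marks the start of most active genes, and in ESCs also many silent developmental genes that carry the Polycomb mark. CXXC domain proteins, among them CXXC1 of the SET1 complexes and MLL1 and MLL2 themselves, bind unmethylated CpG dinucleotides, and CpG-rich promoters generally carry H3K4me3.

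The promoter sequences of 8 genes are given as examples, and Sin3a and Sfi1 among them have no ASH2L peak. Each line gives 200 bases of GRCm38 (mm10) from 170 bases before to 29 bases after the start site, 5′ to 3′ on the strand of the gene. Capitals mark GC boxes, the letters GGGCGG on either strand, and in Gsk3b also a TATA box, the letters TATAAA on either strand. The first 4 are the peaks with the highest p-value scores and a fold enrichment under 10. Ncor1 is at chr11:62457294-62457493 on the minus strand, Ern1 at chr11:106487807-106488006 on the minus strand, Mmp17 at chr5:129583999-129584198 on the plus strand and Rnf13 at chr3:57735892-57736091 on the plus strand.
Ncor1: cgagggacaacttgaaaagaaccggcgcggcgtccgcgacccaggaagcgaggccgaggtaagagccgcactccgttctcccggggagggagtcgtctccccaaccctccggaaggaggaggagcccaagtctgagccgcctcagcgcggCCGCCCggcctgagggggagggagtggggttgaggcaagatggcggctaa
Ern1: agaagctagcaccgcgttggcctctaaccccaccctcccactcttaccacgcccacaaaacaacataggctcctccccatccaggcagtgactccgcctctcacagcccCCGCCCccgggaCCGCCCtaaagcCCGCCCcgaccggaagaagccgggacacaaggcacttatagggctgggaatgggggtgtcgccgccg
Mmp17: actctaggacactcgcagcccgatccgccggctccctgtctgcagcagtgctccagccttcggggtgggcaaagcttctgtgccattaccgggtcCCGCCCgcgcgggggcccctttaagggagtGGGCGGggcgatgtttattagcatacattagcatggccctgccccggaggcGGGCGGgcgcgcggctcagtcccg
Rnf13: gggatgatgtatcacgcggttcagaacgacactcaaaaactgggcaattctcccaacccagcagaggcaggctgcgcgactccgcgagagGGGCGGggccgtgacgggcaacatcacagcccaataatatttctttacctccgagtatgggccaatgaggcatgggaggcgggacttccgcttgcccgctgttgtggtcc
Dpy30 is shown because its product is the partner of ASH2L, and Gsk3b because it had the highest p-value score among ASH2L promoters with a TATA box. Dpy30 is at chr17:74316434-74316633 on the minus strand and Gsk3b at chr16:38088831-38089030 on the plus strand.
Dpy30: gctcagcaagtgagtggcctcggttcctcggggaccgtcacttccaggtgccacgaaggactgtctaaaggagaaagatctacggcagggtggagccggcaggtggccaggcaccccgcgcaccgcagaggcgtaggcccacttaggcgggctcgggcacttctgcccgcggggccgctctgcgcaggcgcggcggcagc
Gsk3b: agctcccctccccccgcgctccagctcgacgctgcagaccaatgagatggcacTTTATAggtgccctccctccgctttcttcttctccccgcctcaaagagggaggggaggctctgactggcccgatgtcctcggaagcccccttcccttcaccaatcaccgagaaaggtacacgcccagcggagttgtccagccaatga
Sin3a and Sfi1 had the most H3K4me3 tags of all genes without an ASH2L peak (2121 and 2108, against a median of 462). They are extremes of the comparison group and not typical of it. Sin3a is at chr9:57071870-57072069 on the plus strand and Sfi1 at chr11:3193378-3193577 on the minus strand.
Sin3a: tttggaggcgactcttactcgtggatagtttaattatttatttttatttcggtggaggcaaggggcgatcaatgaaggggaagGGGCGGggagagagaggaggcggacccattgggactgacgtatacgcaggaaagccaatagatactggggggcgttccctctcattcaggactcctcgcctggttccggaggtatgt
Sfi1: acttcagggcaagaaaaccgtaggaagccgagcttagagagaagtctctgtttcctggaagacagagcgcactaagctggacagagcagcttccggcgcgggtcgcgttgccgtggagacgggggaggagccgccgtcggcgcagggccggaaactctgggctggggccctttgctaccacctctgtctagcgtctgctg
These stretches held 20 CpG dinucleotides in Ncor1, 14 in Ern1, 19 in Mmp17, 14 in Rnf13, 19 in Dpy30 and 11 in Gsk3b, compared with 11 in Sin3a and 16 in Sfi1. Ern1 and Mmp17 had 3 GC boxes each, Ncor1, Rnf13 and Sin3a had 1, and Dpy30, Gsk3b and Sfi1 had none in the stretch shown. The TATA box of Gsk3b began at position −117 from the start site, on the opposite strand.

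At the level of genes, 14214 of 20757 protein-coding genes on chromosomes 1 to 19 had H3K4me3 in a promoter window of any of their transcripts (68.5%). An ASH2L peak lay at the promoter of 999 of these 14214 genes (7.03%, interval 6.62% to 7.46%), which are called ASH2L genes below. In another 566 marked genes, an ASH2L peak reached into the promoter window with its midpoint outside. They belong to neither group, and counting them as well gave 1565 genes (11.01%). The 12649 genes with H3K4me3 and no ASH2L peak over any promoter window are called H3K4me3-only genes. A gene without an ASH2L peak had no peak that passed the caller at this depth, which does not show that ASH2L is absent. All intervals cover counting error only.

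The ASH2L peaks at marked coding promoters held few tags each. Their median was 36 tags (lowest 19, highest 87), with a median width of 785.5 bp (307 bp to 1652 bp) and a median fold enrichment of 5.31 over the modelled background (3.20 to 16.2). The p-value score, which is −10·log10 of the p-value and starts at 50, had a median of 66.5. A score under 60 was found in 313 of 914 peaks (34.2%, 31.2% to 37.4%) and one of 100 or more in 110 (12.04%, 10.1% to 14.3%). The lowest scores were 50.06 at Tbc1d1, a GTPase-activating protein for Rab proteins, and 50.08 at both Fgf20, a growth factor, and Prph, an intermediate filament protein. These peaks held 24, 19 and 32 tags, and the list held no peak with a score under 50. Tags and width were nearly the same ranking (Spearman rho 0.945 across the 914 peaks). ASH2L tags and the tags of the H3K4me3 peak below them were only weakly related (rho 0.259, Pearson r 0.247, n = 914 peaks of the same 2 libraries). All 914 had passed the score cutoff, so the range of ASH2L tags is cut at its lower end. Genes without a called ASH2L peak do not enter this value.

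**Figure D1:**
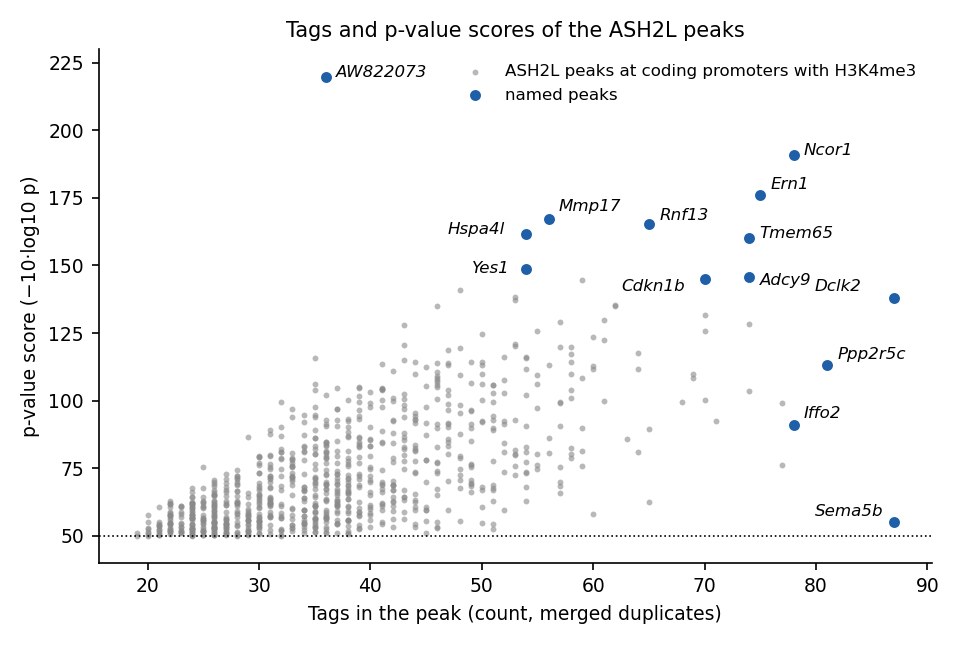
Tags (x axis, count) and p-value score (y axis, −10·log10 p) of the 914 ASH2L peaks, with the 10 highest scores and the 5 highest tag counts in blue and the cutoff of 50 as a dotted line. Most peaks sit near the cutoff, and AW822073 stands apart with a score of 219.6 from 36 tags.

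The highest scores belonged to genes of varied function. Ncor1, the nuclear receptor corepressor, had an ASH2L peak at chr11:62456659-62457895 with 78 tags (exact Poisson interval 61.7 to 97.4), a score of 191 and a fold enrichment of 5.61. Its midpoint was 46 bp downstream of a start site, in the UTR, and it lay in an H3K4me3 peak of 6098 bp with 1307 tags. Ern1, the sensor kinase of the unfolded protein response known as IRE1, followed with 75 tags (59.0 to 94.0), a score of 176 and a fold enrichment of 7.67 at chr11:106487178-106488477. Mmp17, a membrane-anchored metalloproteinase, had 56 tags (42.3 to 72.7) and a score of 167 at chr5:129583868-129584605. Rnf13, a ubiquitin ligase, had 65 tags (50.2 to 82.9) and a score of 165 at chr3:57735405-57736537. The intervals of these 4 tag counts overlapped each other, so that their order by tags is not resolved.

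The next scores were 162 at Hspa4l, a chaperone of the HSP110 family, 160.1 at Tmem65, 149 at the Src family kinase gene Yes1, 146 at the adenylyl cyclase gene Adcy9 and 145 at Cdkn1b, which encodes the cell cycle inhibitor p27. Their tags were 54, 74, 54, 74 and 70. The highest score of all, 219.6, was at AW822073, chr10:58225246-58225552, with 36 tags (25.2 to 49.8) and a fold enrichment of 16.2. It differed from the rest in shape, since the peak was 307 bp wide and its H3K4me3 peak 308 bp, with 25 tags and the same end. No base of it was soft-masked as a repeat, and CpG observed to expected in its promoter window was 0.305.

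By tags, Dclk2 and Sema5b shared the highest count, 87 each (69.7 to 107), and Ppp2r5c had 81, Ncor1 78 and Iffo2 78. Their scores ranged widely. Dclk2, a doublecortin-like kinase gene, had a score of 138, while Sema5b, a semaphorin gene, had 55.05 with the same number of tags in a peak of similar width (1652 bp and 1549 bp). Ppp2r5c, a regulatory subunit of protein phosphatase 2A, had a score of 113, and Iffo2 91.1.

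Within the window of the rule, the peaks grew denser toward the start site from upstream. The median midpoint was at −26 bp relative to the nearest start site in reach. Within 100 bp of that site were 594 of 914 midpoints (65.0%, 61.8% to 68.0%), and 89 were more than 400 bp upstream (9.74%). The rule admits no midpoint beyond 100 bp downstream, and the nearest site in reach was taken. Both choices partly set this median and the share within 100 bp. Per 100 bp, 352 peaks lay from the start site to 100 bp downstream, 178 in the 200 bp upstream of it, 58.5 from 200 to 400 bp upstream and 6.5 in the farthest 200 bp. The density was still high at the downstream edge of the window, where the rule ends, so a fall in density farther downstream could not be seen. Just inside that edge were Foxh1, a transcription factor of Nodal signalling, and Tmod2, a tropomodulin, both at 100 bp with 54 and 36 tags. Just outside were Rbm18 and Phlpp2, both at 101 bp with 39 and 49 tags. At the upstream edge, Rgs9bp (−944 bp, 39 tags) was inside and Ppp1r26 (−1068 bp, 38 tags) and Elf2 (−1076 bp, 32 tags) outside. Tags inside and outside overlapped in range at the downstream edge.

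**Figure D2:**
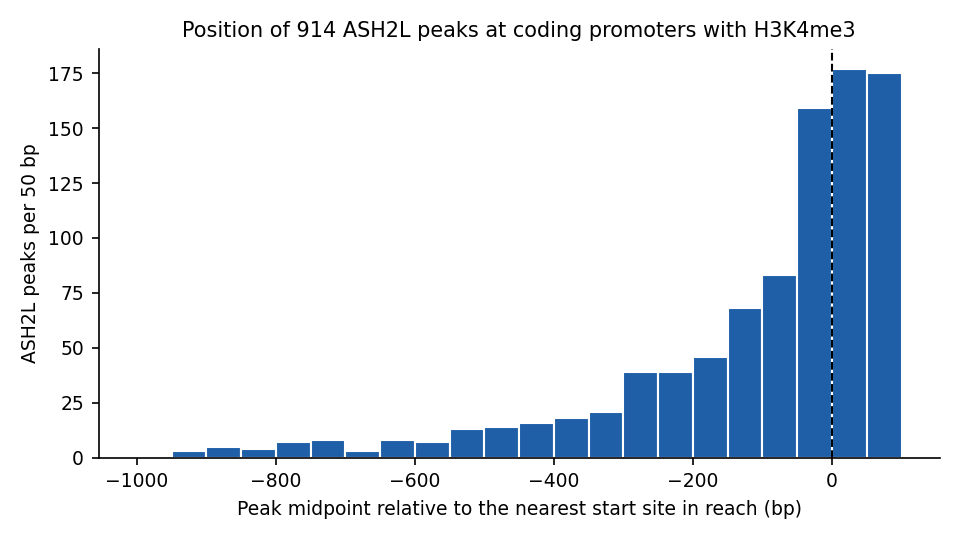
Number of ASH2L peaks per 50 bp (y axis) by the distance of the peak midpoint from the nearest coding start site in reach (x axis, bp, negative upstream), with the start site as a dashed line. The 914 peaks thin out with distance upstream and run up to the edge of the window at 100 bp, where the rule cuts them off.

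In the transcripts of the nearest gene, 392 of 914 midpoints were in UTRs (42.9%), 323 upstream of the gene (35.3%), 131 in introns (14.3%) and 68 in coding exons (7.44%). Within the H3K4me3 peaks, most ASH2L midpoints were central. Overlap with H3K4me3 and a place at a start site are part of the rule, so these positions are partly set by it. Of the 914, 908 lay wholly inside the H3K4me3 peak (99.3%), and 841 had their midpoint in the central 50% of it (92.0%, 90.1% to 93.6%). The median position was 48.8% of the way along the H3K4me3 peak. The highest points of both signals were a median of 179 bp apart. Repeats were scarce under these peaks, with a median of 3.96% soft-masked bases and 2 of 914 peaks above 50%.

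Some peaks were in reach of more than 1 gene. A single gene was in reach of 830 peaks, 2 genes of 80 and 3 genes of 4. Of these 84 shared peaks, 78 had genes on both strands, as at divergent promoters. Ormdl1 and the mismatch repair gene Pms1 shared 26 tags at chr1:53296821-53297415, and Ak6, Rad17 and Taf9 shared 44 tags at chr13:100650592-100651658. Such genes each count below, although they rest on the same peak. In 3 genes, Arhgef17, Fam57a and Sptbn1, named after their values were seen, 2 ASH2L peaks lay at separate start sites of the gene.

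The H3K4me3 peaks at ASH2L genes were wider and held more tags than those at H3K4me3-only genes, taking for each gene its widest H3K4me3 peak. The median width was 3408 bp (interval 3306 to 3480) against 2920 bp (2893 to 2944), and the median tag count was 609 (584 to 630) against 462 (457 to 467). Tags per 1000 bp were 173 against 153. Fold enrichment was lower, with a median of 5.91 (5.80 to 6.06) against 6.39 (6.34 to 6.44). A wide H3K4me3 peak offers more sequence for an overlap, and the part of this in the difference was not tested. Broad peaks of 5000 bp or more were found at 15.1% of ASH2L genes (13.0% to 17.5%) and at 12.35% of H3K4me3-only genes (11.8% to 12.9%), and these intervals did not overlap. No peak in the H3K4me3 list was wider than 8609 bp. Whether the peak calling set a limit on width is not given in the sources used here, and its part in these shares was not tested.

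Across 10 equal groups of marked genes by H3K4me3 tags, the share with ASH2L was 1.05% in the lowest group (19 to 174 tags), 6.19% in group 5, 12.2% in group 8 and 10.97% in group 10 (886 to 2121 tags). The intervals of groups 8 to 10 overlapped, and above 621 tags the share did not rise further. By fold enrichment the pattern was different. It was 6.61% in the lowest group, 9.28% in group 4 and 3.24% (2.43% to 4.29%) in the highest, with fold enrichments from 9.89 to 23.2.

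**Figure D3:**
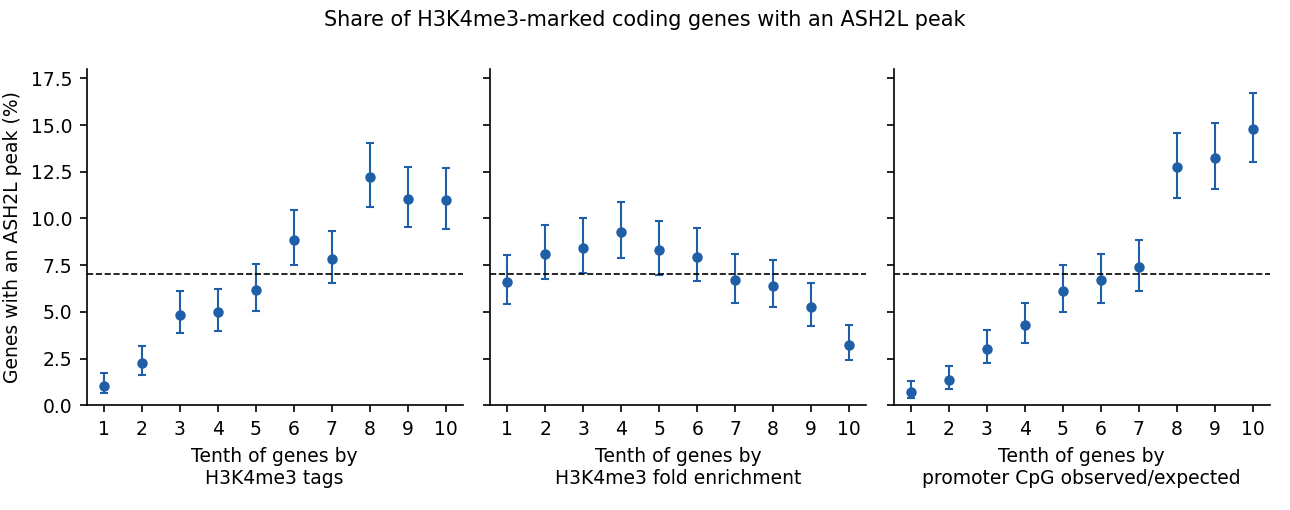
Share of H3K4me3-marked coding genes with an ASH2L peak (y axis, percent, with 95% Wilson intervals) in 10 equal groups of genes by H3K4me3 tags, by H3K4me3 fold enrichment and by promoter CpG observed to expected (x axes, lowest group at 1), with the share of all marked genes, 7.03%, as a dashed line. The share reached 14.8% in the highest CpG group and 0.703% in the lowest.

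The promoters of ASH2L genes were richer in CpG. CpG observed to expected, which is near 1 where CpG is not depleted, had a median of 0.711 (0.701 to 0.724) in the promoter windows of ASH2L genes and 0.555 (0.550 to 0.560) in those of H3K4me3-only genes. The GC content was 56.8% against 52.2%, and soft-masked repeats made up 8.54% against 12.8%. For ASH2L genes the start site nearest to the peak was used, and for H3K4me3-only genes the one with the widest H3K4me3 peak. With the latter choice for both, CpG observed to expected at ASH2L genes was 0.691 (0.669 to 0.701). In genes with only 1 start site it was 0.699 in 202 ASH2L genes and 0.533 in 4051 H3K4me3-only genes. The share of genes with ASH2L was 0.703% (0.382% to 1.29%) in the lowest of 10 groups by CpG observed to expected, 6.12% in group 5 and 14.8% (13.0% to 16.7%) in the highest, the widest range of the 3 measures plotted. Among the 914 peaks themselves, all of which had passed the cutoff of the caller, ASH2L tags followed CpG only weakly (rho 0.157). GC content moved with the presence of an ASH2L peak, no control library entered the peak calling, and its part in the difference was not tested.

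Letters of known promoter elements were searched on both strands in 300 bp centred on the start site. The GC box (GGGCGG), which SP/KLF factors recognise, was in 79.9% of ASH2L genes (77.3% to 82.3%), 61.7% of H3K4me3-only genes (60.8% to 62.5%) and 47.2% of all 20757 coding genes. With the start site chosen alike in both groups it was 74.0% (71.2% to 76.6%) in ASH2L genes. The NRF1 site (GCGCNTGCG) was in 14.8% (12.8% to 17.2%) against 10.9% and 8.07% of all genes, and the ETS site (CCGGAAG) in 17.9% (15.7% to 20.4%) against 14.7% and 11.1%. All 3 contain CpG. So do the E-box, both CRE motifs, the shorter NRF1 letters, the longer YY1 motif, the ZBTB33 motif and the E2F site, whose shares were not clearly higher at ASH2L genes. Less frequent at ASH2L genes were the TATA box (TATAAA), with 2.90% (2.03% to 4.14%) against 5.61% and 10.4% of all genes, and the AP-1 site (TGANTCA), with 2.10% (1.38% to 3.19%) against 4.02% and 5.84%. The E-box (CACGTG) was also less frequent, in 6.21% (4.87% to 7.88%) against 8.82% and 7.16%. The part of CpG content in these motif shares was not tested. With the start site chosen alike, the NRF1 share at ASH2L genes was 13.01% (11.07% to 15.2%) and overlapped the interval of H3K4me3-only genes (10.4% to 11.5%). Among genes with 1 start site it was 14.85% (10.6% to 20.4%) against 11.6%. With the start site chosen alike, the ETS share did not move and the TATA box share was 3.403% (2.45% to 4.72%), still below the interval of H3K4me3-only genes (5.22% to 6.03%). The E-box share was 6.81% (5.405% to 8.54%), overlapping that of H3K4me3-only genes (8.34% to 9.33%). The AP-1 share at ASH2L genes was 3.30% (2.36% to 4.60%) and its interval then held the H3K4me3-only value.

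The CCAAT box (CCAAT) was in 31.2% of ASH2L genes (28.4% to 34.2%) and 32.7% of H3K4me3-only genes. The full CRE (TGACGTCA), in 2.60% and 2.78%, contains the shorter CRE (TGACGT), in 9.91% and 9.79%. The shorter NRF1 letters (TGCGCA) were in 12.2% and 12.1%, and the longer YY1 motif (AGATGGCGG) in 3.10% and 2.59%. The YY1 core (AAGATGG), which can overlap the longer one, was in 7.41% and 7.22%. The ZBTB33 motif (CTCGCGAG) was in 1.502% and 1.573%, the E2F site (TTTCCCGC) in 1.80% and 1.85%, and part of the RONIN and HCFC1 motif (CTACAATTC) in 0.200% and 0.482%. For each of these 9 motifs, the interval of ASH2L genes held the H3K4me3-only share. Of all coding genes, 34.5% held the CCAAT box, 2.12% and 7.87% the full and shorter CRE, 9.05% the shorter NRF1 letters, 1.87% and 7.07% the longer YY1 motif and its core, 1.12% the ZBTB33 motif, 1.38% the E2F site and 0.357% the RONIN and HCFC1 letters. A match is a run of letters and not a site shown to be bound.

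Because H3K4me3 tags, CpG and ASH2L moved together, CpG and the GC box were also read within 5 equal groups of genes by H3K4me3 tags. In each group, ASH2L genes had the higher median CpG observed to expected and the higher share with a GC box. In the lowest group (19 to 272 tags), CpG was 0.464 in 47 ASH2L genes and 0.360 in 2753 H3K4me3-only genes. In group 4 (543 to 721 tags) it was 0.736 in 285 and 0.643 in 2421, and a GC box was in 85.3% (80.7% to 88.9%) and 68.2% (66.4% to 70.1%). In the highest group it was 0.757 in 313 and 0.679 in 2388, with a GC box in 76.4% and 66.2%. The CpG intervals did not overlap between ASH2L and H3K4me3-only genes in any of the 5 groups, and neither did those of the GC box share. With the start site chosen alike in both classes, a choice made after seeing the data, both values remained higher at ASH2L genes in each group, by smaller differences. CpG was then 0.439 (0.363 to 0.523) in the lowest group, an interval that overlapped the 0.352 to 0.3696 of H3K4me3-only genes, and 0.7175 and 0.746 in group 4 and in the highest. The GC box shares of ASH2L genes were 57.4% (43.3% to 70.5%) in the lowest group, 80.0% in group 2, 74.3% in group 3, 77.5% in group 4 and 70.3% (65.0% to 75.1%) in the highest. Their intervals overlapped those of H3K4me3-only genes in the lowest group (44.6% to 48.3%) and in the highest (64.3% to 68.1%), and not in the other 3.

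The lower TATA box share over all ASH2L genes was not seen in every group. It was 8.51% against 7.92% in the lowest group and 5.71% against 5.07% in group 2, where ASH2L genes had the higher value. It was 1.87% (0.729% to 4.71%) against 4.15% (3.43% to 5.01%) in group 3, 1.05% (0.359% to 3.05%) against 4.67% (3.90% to 5.58%) in group 4, and 3.195% (1.74% to 5.78%) against 6.03% (5.14% to 7.06%) in the highest. The intervals were apart in group 4 only.

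**Figure D4:**
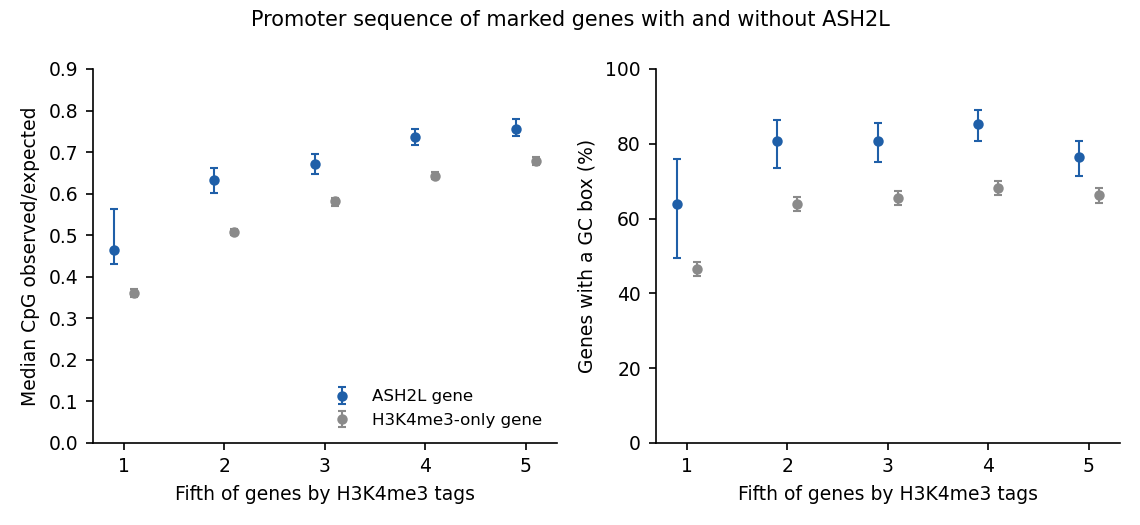
Median CpG observed to expected of the promoter (left, y axis) and share of genes with a GC box (right, y axis, percent) in 5 equal groups of marked genes by H3K4me3 tags (x axes, lowest group at 1), for ASH2L genes in blue and H3K4me3-only genes in grey, with 95% intervals. ASH2L genes are higher in each group, with the start site nearest to the peak used for them.

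Divergent promoters, with the start site of another coding gene on the opposite strand within 1000 bp upstream, were more frequent among ASH2L genes, at 19.3% (17.0% to 21.9%) against 12.01% (11.45% to 12.6%). Of the ASH2L peaks in reach of more than 1 gene, 78 had genes on both strands. Such genes each count here, although they rest on the same peak, and the intervals treat them as separate. Within the 5 groups by H3K4me3 tags, ASH2L genes had the higher divergent share in 3. It was 5.71% (2.92% to 10.9%) against 3.80% (3.13% to 4.61%) in group 2 and 14.95% (10.8% to 20.35%) against 9.71% (8.603% to 10.93%) in group 3, with intervals that overlapped. In group 4 it was 21.4% against 21.6%, and in the lowest group 0 of 47 ASH2L genes (Wilson interval up to 7.56%) against 2.51%. In the highest group it was 29.4% (24.6% to 34.7%) against 24.5% (22.9% to 26.3%), and these intervals overlapped. ASH2L genes also had more annotated start sites, a median of 3 against 2, and 20.2% of them had a single one, against 32.03% of H3K4me3-only genes. A gene with more start sites has more windows in which a peak can fall. The part of this in these shares was not tested. Among genes with 1 start site, 202 had ASH2L (4.54% of those marked, 3.97% to 5.20%).

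By chromosome, the share of marked genes with ASH2L ran from 4.203% on chromosome 17 (29 of 690, 2.94% to 5.97%) to 10.6% on chromosome 16 (48 of 454, 8.07% to 13.7%). Chromosome 12, with 10.5% (8.11% to 13.4%), was next to the latter, and chromosome 9, with 9.07% (7.31% to 11.2%), followed. The intervals of chromosomes 9, 12, 16 and 17 left out the 7.03% of all marked genes, and the rest held it. These are the ends of a ranking, and no test was made.

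ASH2L genes were spread over many functions, and with the main setting none of 28 gene lists stood clear of the share over all marked genes. The Wilson interval of each of the 28 lists then held 7.03%, with 7 lists above that share, 21 below and 3 of the latter at 0. The lists together held 1948 marked genes and 112 of the 999 ASH2L genes, while 887 were in none. The lists and their members were chosen by symbol with earlier results of these data known, and no set test was made. Over the 7 other settings, 6 of 196 list shares had an interval that left out the overall share of the same setting. With the summit of the peak in place of its midpoint, proteasome subunits had 16.7% (7.87% to 31.9%) against 6.965% of all marked genes. With H3K4me3 peaks at or above the median fold enrichment, chaperones had 15.6% (6.86% to 31.75%) against 5.78%. With start sites within 2500 bp on both sides, where 11.4% of all marked genes had ASH2L, Polycomb complex genes were above with 24.0% (11.5% to 43.4%), while below it were oxidative phosphorylation (4.60%, up to 11.2%), Hox genes (0, up to 10.43%) and replication-dependent histones (1.75%, up to 9.29%). The side of the overall share on which a list fell often turned with the setting. Of the 7 lists above it, 2 (Wnt pathway and chaperones) were above in each of the 7 other settings, and of the 21 below it, 10 were below in each. The setting with an overlap of at least 50% of the ASH2L peak left the same number of peaks and the same shares as the main setting.

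**Figure D5:**
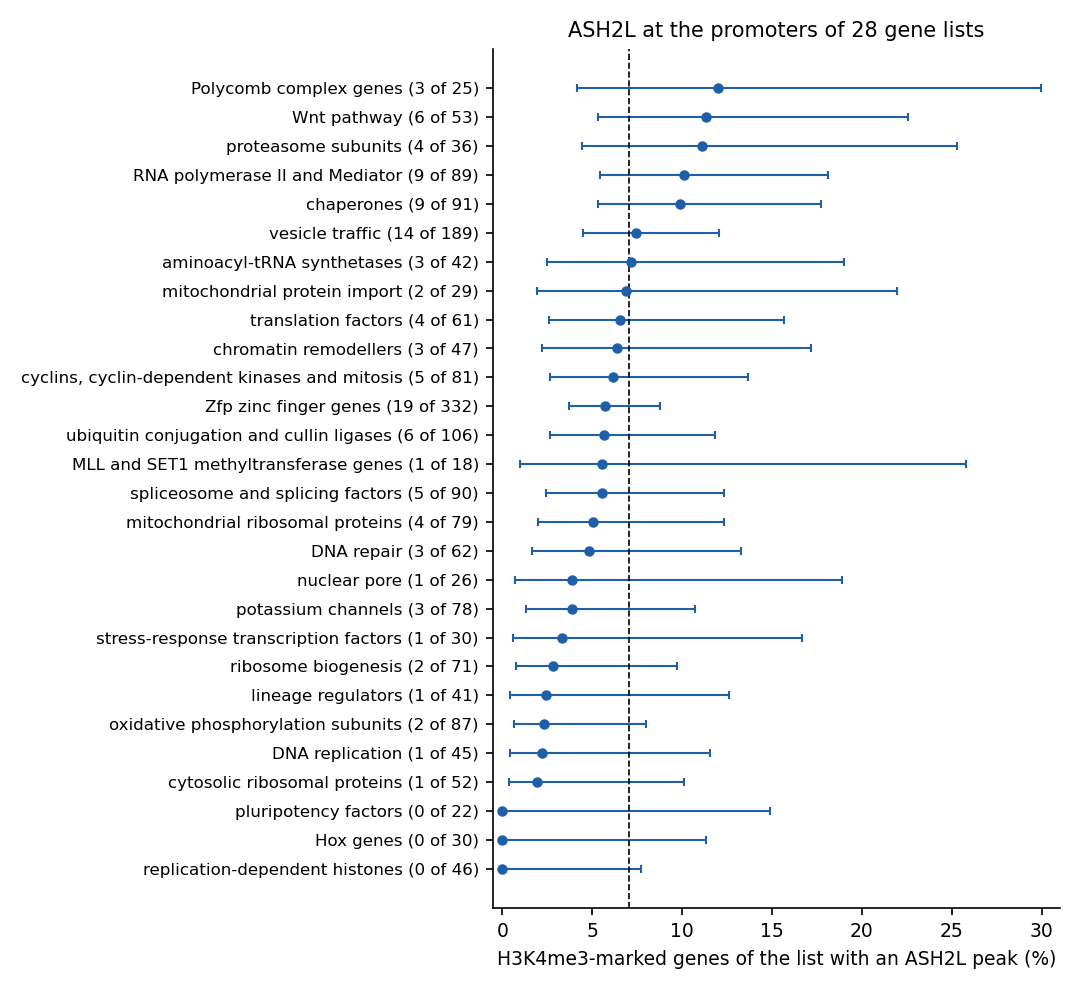
Share of the H3K4me3-marked genes of 28 lists that had an ASH2L peak (x axis, percent, with 95% Wilson intervals), with the numbers beside each name and the share of all marked genes, 7.03%, as a dashed line. Shares range from 0 for pluripotency factors, Hox genes and replication-dependent histones to 12% for Polycomb complex genes, and each interval crosses the line.

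The genes of the MLL/SET1 complexes come first, because ASH2L is part of them. Of 18 with H3K4me3, Dpy30 alone was an ASH2L gene (5.56%, 0.988% to 25.8%). Its ASH2L peak at chr17:74316119-74316786 had 30 tags (20.2 to 42.8), a score of 79.2 and a fold enrichment of 5.84, centred 11 bp downstream of the start site in an H3K4me3 peak of 3819 bp with 750 tags. At Wdr5, the WD40 scaffold subunit, an ASH2L peak reached the promoter window with its midpoint outside. The other 16 had H3K4me3 only. They included the catalytic subunit genes Kmt2a (1057 H3K4me3 tags), Kmt2b (964), Kmt2c (1072), Kmt2d (996) and Setd1a (735), the core subunit gene Rbbp5 (852), and Ash2l itself (357 tags, CpG observed to expected 0.322). Setd1b and Wdr82 had no H3K4me3 peak in the list. Kmt2a and Kmt2c had more H3K4me3 tags than Dpy30 and no ASH2L peak.

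Polycomb complex genes, whose products mark silent chromatin, had the highest share among the lists with the main setting, 3 of 25 (12%, 4.17% to 29.96%). It was below the overall share with H3K4me3 peaks at or above the median fold enrichment (0 against 5.78%) and with 1 start site per gene (4.35% against 4.53%). Suz12, a core subunit of PRC2, had an ASH2L peak with 47 tags and a score of 104 at chr11:79992654-79993636. Cbx7, the reader of the Polycomb mark in canonical PRC1, had 36 tags and a score of 92.7. Kdm2b, which brings a variant PRC1 to CpG islands through its CXXC domain, had 35 tags and a score of 59.3. At Ezh2, Pcgf5 and Rnf2, an ASH2L peak reached the window with its midpoint outside. Epop, a PRC2 partner, had the most H3K4me3 tags of the list, 1441, and no ASH2L peak.

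In the Wnt pathway, 6 of 53 marked genes had ASH2L (11.3%, 5.29% to 22.6%). They were the receptors Fzd4 (57 tags, score 99.5), Fzd6 (33 tags, 73.3) and Fzd10 (38 tags, 58.4), the ligand Wnt4 (46 tags, 73.3), and Axin1 (47 tags, 98.7) and Gsk3b (69 tags, 109.7) of the complex that degrades β-catenin. The receptor Fzd8 had the most H3K4me3 tags of the genes without ASH2L, 1061. Among genes of the general transcription machinery, 9 of 89 had ASH2L (10.1%, 5.41% to 18.1%). The highest scores were at the Mediator genes Med23 (40 tags, 103) and Med25 (36 tags, 84.6) and the TFIID genes Taf9 (44 tags, 82.4) and Taf10 (43 tags, 82.2), while Polr2h, a subunit of RNA polymerases, had 1347 H3K4me3 tags and no ASH2L peak.

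The intervals of the protein quality control lists held the overall share with the main setting, and those of proteasome subunits and chaperones lay above it under 1 alternative each, as given. The proteasome share was below the overall one in 3 others, with 4.55% against 5.78% for the stricter H3K4me3 list, 2.78% against 3.44% for ASH2L peaks at or above the median fold enrichment, and 0 against 0.858% for scores of 100 or more. Of the proteasome subunit genes, 4 of 36 had ASH2L (11.1%, 4.41% to 25.3%), namely Psma7 (77 tags, 99.3), Psmd6 (27 tags, 66.9), Psma4 (38 tags, 63.8) and Psmc2 (32 tags, 50.1), and Psmb1 was the gene with most H3K4me3 tags among the rest, 1068. Chaperone genes had 9 of 91 (9.89%, 5.29% to 17.7%), led by Hspa4l, Hspa2 (58 tags, 100.9), Dnajc17 (35 tags, 82.0) and Dnajc14 (64 tags, 81.0), and Hspe1 had H3K4me3 only with 1405 tags. Of ubiquitin conjugation and cullin ligase genes, 6 of 106 had ASH2L (5.66%, 2.62% to 11.8%), and at 10 more an ASH2L peak reached the window with its midpoint outside. With start sites within 2500 bp on both sides the share was 16.04% (10.3% to 24.2%) against 11.4% of all marked genes. The 6 were the conjugating enzyme genes Ube2k (40 tags, 85.9) and Ube2v2 (34 tags, 80.9) and the F-box genes Fbxo8, Fbxo21, Fbxo5 and Fbxw7, with scores from 64.5 to 78.7, while Fbxl19 had 1691 H3K4me3 tags and no ASH2L peak.

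Vesicle traffic genes had 14 of 189 (7.41%, 4.46% to 12.05%), with Vps37a (43 tags, 100.6), Snx4 (51 tags, 94.4), Rab22a (47 tags, 83.2) and Rab3b (34 tags, 83.1) at the top and Vps52 among the rest with 1482 H3K4me3 tags. In the list of stress-response transcription factors, Xbp1 was the single ASH2L gene of 30 (3.33%, 0.591% to 16.7%), with 46 tags and a score of 91.4. Its mRNA is spliced by the product of Ern1, which had the third highest score of the 914 peaks. Myc, with 1617 H3K4me3 tags, had no ASH2L peak.

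Most lists of genes for making proteins were below 7.03%, within their intervals. Of 82 cytosolic ribosomal protein genes in the annotation, 52 had an H3K4me3 peak in the list at their promoter. Of these, Rps27l, a paralogue of Rps27, was the 1 with ASH2L (1.92%, 0.340% to 10.1%; 54 tags, score 116). Rps18 had 1482 H3K4me3 tags and no ASH2L peak. The median H3K4me3 peak of this list, 5976 bp and 907 tags, was above the medians of ASH2L genes. Ribosome biogenesis had 2 of 71 (2.82%, 0.776% to 9.70%), Rrp9 (45 tags, 105) and Polr1d (33 tags, 75.7), and not Ncl with 1172 H3K4me3 tags. Mitochondrial ribosomal proteins had 4 of 79 (5.06%, 1.99% to 12.3%), Mrpl40 (54 tags, 81.2), Mrps33 (30 tags, 66.95), Mrpl53 (32 tags, 61.9) and Mrpl35 (20 tags, 51.6), and Mrpl49 had 1412 H3K4me3 tags without ASH2L.

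For translation factors the count was 4 of 61 (6.56%, 2.58% to 15.7%), namely Eif4h (36 tags, 67.4), Eif3j1 (22 tags, 62.9), Eif3i (31 tags, 57.2) and Eef1akmt2 (55 tags, 109.6), which is a methyltransferase of an elongation factor and not a factor itself. Etf1, the release factor, had 1353 H3K4me3 tags and no ASH2L peak. The symbol pattern for aminoacyl-tRNA synthetases gave 3 of 42 (7.14%, 2.46% to 19.01%), among them Kars (35 tags, 54.9) and Cers2 (38 tags, 55.9), which encodes a ceramide synthase. Irs2, an insulin receptor substrate also taken by the pattern, had the most H3K4me3 tags without ASH2L, 1268. Without the genes that are not synthetases, 2 of 35 had ASH2L. Splicing factors had 5 of 90 (5.56%, 2.40% to 12.3%), with Srsf11 (48 tags, 120), Hnrnpa1 (39 tags, 86.7), Prpf40b (41 tags, 66.3), Lsm1 (35 tags, 54.0) and Hnrnph1 (30 tags, 50.6), and Hnrnpul2 had 1419 H3K4me3 tags without ASH2L.

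Mitochondrial lists were below that share too, again within their intervals. Of 87 oxidative phosphorylation genes, Ndufa4 (42 tags, 88.2) and Ndufv2 (35 tags, 56.4) had ASH2L (2.30%, 0.633% to 7.999%), while the assembly factor gene Ndufaf3, also taken by the symbol pattern, had 1260 H3K4me3 tags and none. Mitochondrial import had 2 of 29 (6.90%, 1.91% to 22.0%), the outer membrane receptor gene Tomm70a (25 tags, 67.5) and Tomm34 (40 tags, 58.3), and Hspd1, with 1405 H3K4me3 tags in the peak it shares with Hspe1, had none. Nup54 (43 tags, 77.6) was the 1 nuclear pore gene of 26 with ASH2L (3.85%, 0.682% to 18.9%), and Seh1l had H3K4me3 only with 1034 tags.

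Among cell cycle genes, 5 of 81 had ASH2L (6.17%, 2.67% to 13.7%). They were Cdkn1b (70 tags, 145), Anapc4 of the anaphase-promoting complex (36 tags, 90.6), the phosphatase gene Cdc25b (59 tags, 81.5), Cenpl (30 tags, 60.3) and the cyclin gene Ccne2 (34 tags, 54.3). Ccnd1 had 1508 H3K4me3 tags and no ASH2L peak. DNA replication had Pole2, a polymerase ε subunit, as 1 of 45 (2.22%, 0.393% to 11.6%; 26 tags, score 50.5), with Mcm7 among the rest (1093 H3K4me3 tags). DNA repair had 3 of 62 (4.84%, 1.66% to 13.3%), among them the mismatch repair gene Pms1 and the checkpoint gene Rad17, with Msh5 among the rest (1214 H3K4me3 tags). Chromatin remodellers had 3 of 47 (6.38%, 2.20% to 17.2%), namely Smarcc1 (37 tags, 62.9), Hdac4 (31 tags, 58.8) and Ino80 (22 tags, 52.7), with Arid2 among the rest (1408 H3K4me3 tags).

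Lists of genes that set cell identity held 0 or 1 ASH2L gene, and with the main setting their intervals also held 7.03%. Of 22 marked pluripotency factors, 0 had ASH2L, a count whose Wilson interval reaches 14.9%, although their H3K4me3 peaks were wide, with a median of 6453 bp and 978.5 tags. Their median CpG observed to expected was 0.499, below that of H3K4me3-only genes. Of 30 marked Hox genes, 0 had ASH2L (up to 11.35%). Of 41 lineage regulators, Cdx1, a homeobox gene of the posterior body axis, was the 1 with ASH2L (2.44%, 0.432% to 12.6%), with 56 tags and a score of 80.7. Tfap2c had 1531 H3K4me3 tags and none.

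Among 332 marked Zfp zinc finger genes, many of which encode DNA-binding repressors, 19 had ASH2L (5.72%, 3.69% to 8.77%), with Zfp106 (50 tags, 106), Zfp592 (47 tags, 96.7), Zfp672 (38 tags, 93.1) and Zfp866 (50 tags, 92.0) at the top, and Zfp462 had 1404 H3K4me3 tags without ASH2L. Potassium channel genes had 3 of 78 (3.85%, 1.32% to 10.7%), Kcns2 (41 tags, 84.7), Kcnk10 (24 tags, 56.7) and Kcnh2 (51 tags, 52.5). Of 46 marked replication-dependent histone genes, 0 had ASH2L (Wilson interval up to 7.71%). The widest H3K4me3 peak of the list, 8609 bp with 1240 tags, covered Hist1h2ad, Hist1h2ae, Hist1h2bf, Hist1h2bg and Hist1h3d together and had no ASH2L peak at their promoters.

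Among the genes with the most H3K4me3 tags and no ASH2L were Sin3a, a corepressor scaffold (2121 tags), Sfi1 (2108), Ppp1r16a (1726) and the kinase gene Pim3 (1725). Their H3K4me3 peaks were 7763 to 8239 bp wide, with fold enrichments from 2.76 to 4.61. Ppp1r16a shares its H3K4me3 peak with Foxh1, so that 1 H3K4me3 peak held an ASH2L gene and an H3K4me3-only gene.

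Symbol families offered a view without chosen functions. Of 33 families with at least 30 marked genes, defined by the letters before the number after the lists had been seen, 31 had an interval that held 7.03%. The exceptions were Cep genes, which mostly encode centrosomal proteins, with 7 of 35 (20%, 10.04% to 35.9%), and Cdc genes, with 5 of 30 (16.7%, 7.34% to 33.6%). The Cep genes were Cep85 (37 tags, 96.9), Cep57 (44 tags, 91.8), Cep44 (38 tags, 78.7), Cep19 (34 tags, 77.9), Cep57l1 (36 tags, 72.7), Cep97 (35 tags, 68.7) and Cep120 (19 tags, 51.0). Cep44 shares its peak with Fbxo8. The Cdc genes were Cdc42ep3 (45 tags, 87.1), Cdc25b (59 tags, 81.5), Cdc37l1 (37 tags, 72.9), Cdc42se2 (35 tags, 71.4) and Cdc42ep4 (46 tags, 53.2), which share letters rather than a function. Both families were picked as the extremes of 33, and no test was made.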

How the data were processed

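The authors trimmed the CUT&RUN reads, mapped them to mouse mm10 with Bowtie2, merged the duplicates of each group and called peaks with MACS (version 1.4.3 per the file headers) at a p-value cutoff of 1e-05, with no control library named in the headers. The deposited tag counts are whole numbers of tags per peak, not normalized. The deposited fold enrichment is a ratio to the background the authors' caller modelled, and the deposited score is −10·log10 of its p-value. The tag sizes in the headers, 151 bp for ASH2L and 142 bp for H3K4me3, exceed the fragment limit of the study's methods, so it is not settled which fragments were counted.

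From these lists, peaks were assigned to protein-coding transcripts of GENCODE vM21 on GRCm38. Members and gene lists were chosen with earlier results of these data known. Genes were named by rule: the highest and lowest scores, the most tags, the peaks next to the edges of the window, the H3K4me3-only genes with most tags or width, and in each list all ASH2L genes up to 6 or otherwise the top 4 by score, with the H3K4me3-only gene with most tags. Gm, Rik and microRNA symbols were skipped. Some items that this rule selects are not reported here. CpG observed to expected was computed over the 1101 bp window. Shares have Wilson intervals, medians order-statistic intervals and tags exact Poisson intervals, all at 95%. Alternatives were 7 planned settings (window, summit, stricter lists, overlap, gene starts) and 3 chosen after seeing the data. The peak rule was tested on simulated data. The analysis ran in Python 3.11.15 with pysam 0.24.0 for sequences, pandas 2.3.3 and numpy 2.4.6 for tables, scipy 1.17.1 for intervals and matplotlib 3.10.9 for plots.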

Additional observations from a re-analysis of the deposited data

How the results depend on the processing

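Of 42 alternative values for the 5 main quantities, 18 stayed close and 24 moved, close meaning within 1.5 times for the count of peaks and within the 95% interval of the value given for medians and shares. Start sites within 2500 bp on both sides gave 1523 peaks, 11.4% of marked genes, CpG observed to expected of 0.675 and a divergent share of 14.8%. H3K4me3 peaks at or above the median fold enrichment gave 386 peaks, 5.78%, a median H3K4me3 width of 2604 bp, CpG of 0.655 and 14.9% divergent. ASH2L peaks at or above the median fold enrichment gave 444 peaks, 3.44% and 3267 bp. Scores of 100 or more gave 110 peaks, 0.858%, 3303 bp and CpG of 0.759. With 1 start site per gene, at the gene start, there were 556 peaks, 4.53% and 22.9% divergent. Among settings chosen after seeing the data, the start site chosen as for H3K4me3-only genes gave CpG of 0.691, genes with 1 start site gave 4.54%, CpG of 0.699 and 23.3% divergent, and any overlap with the window gave 11.01%. Most of these settings change which peaks or genes are counted. Width, CpG, the divergent share and the GC box share were each higher at ASH2L than at H3K4me3-only genes in 9 of 9 settings. These are the settings with values for both groups, the main one included. Requiring an overlap of 50% of the ASH2L peak left each value as it was, since 908 of 914 peaks lay wholly inside H3K4me3, and 5 of the 18 close values come from it. Of 196 list shares under the planned settings, 55 left the interval of the value given, and 6 had an interval that left out the overall share of the same setting. No paired analysis was possible because the duplicates were merged before peak calling. Leaving out a replicate was not possible for the same reason. The limits are 1 merged library per antibody, no control library, the anti-HA signal of parental cells not analysed here, few tags per ASH2L peak, and an H3K4me3 list without peaks at some strong promoters.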
